A study of Rattus norvegicus with 56 samples.

Results

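The microRNAs rno-miR-146a-5p and rno-miR-146b-5p are the 5p arms of the 2 miR-146 genes of the rat, and they were followed in hippocampal small RNA libraries after traumatic brain injury (TBI). They were taken by name, as 2 of the 367 mature miRNAs whose read counts were deposited, and the question was whether both genes of the family responded alike. TBI rats had received a fluid percussion injury, in which a pulse of fluid strikes the intact dura, and the controls had sham surgery. Hippocampi were collected 24 h, 2 w, 1 m, 2 m, 3 m, 6 m and 1 y afterwards from 4 TBI and 4 sham rats per interval, which gave 14 groups and 56 libraries of 1 rat each. The strain, sex and age of the rats and the side of the hippocampus sampled are not given in the sources used here, and later intervals also mean older rats.

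A miRNA guides the silencing complex to messenger RNAs that pair with its seed, the short stretch near its 5′ end. The miR-146 family is best known from innate immunity: NF-kB, switched on by Toll-like receptors and inflammatory cytokines, drives transcription of the miR-146a gene, and miR-146a in turn represses the adaptor genes Irak1 and Traf6 of the same receptors, a negative feedback loop. In the brain it is mainly described in microglia and astrocytes. miR-146b comes from a separate gene on another chromosome and, with the same seed, is predicted to pair with the same sites.

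The mature sequences are shown first because they define the family and show how little separates its members. Capitals mark the seed, bases 2 to 8 from the 5′ end, and the sequences are those of RefSeq for the rat assembly GRCr8.
rno-miR-146a-5p: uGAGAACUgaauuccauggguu
rno-miR-146b-5p: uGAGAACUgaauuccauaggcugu
The first 17 bases were identical. Over the 22 bases they share in length the members differed by the substitutions G18A and U21C, with the base of rno-miR-146a-5p first and positions counted from the 5′ end, and rno-miR-146b-5p was 2 bases longer, with 24. Among 693 mature rat miRNAs in the sequence table, only these 2 carried this seed, and the same held among the 331 miRNAs of the count table that could be matched by name. A read that ended before position 18 would therefore fit both members, and the sources used here do not say how such reads were counted. Elsewhere in the count table, miR-299a-3p (21 bases) and miR-299b-3p (17 bases) held identical counts in every library, 25726 in all for each.

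The hairpins below, with the 5p arm in capitals, show the precursor around each arm.
Mir146a: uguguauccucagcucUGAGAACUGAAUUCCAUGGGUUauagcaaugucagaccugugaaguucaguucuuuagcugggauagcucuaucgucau
Mir146b: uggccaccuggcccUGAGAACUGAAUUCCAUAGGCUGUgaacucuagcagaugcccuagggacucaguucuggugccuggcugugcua
In GRCr8 the Mir146a hairpin of 95 bases lies at chr10:28349996-28350090 on the minus strand, inside the gene LOC134480673, and its nearest protein-coding neighbours are Atp10b and Pttg1. The Mir146b hairpin of 88 bases lies at chr1:255144860-255144947 on the plus strand, inside C1h10orf95, between Cuedc2 and Mfsd13a. The counts themselves name no genome build, and the 3p arms were not analysed here.

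Both members were well covered. The total count per library ran from 2083604 to 12468979 in 55 libraries, and TBI 2 m replicate 1 had 69628. Outside that shallow library, rno-miR-146a-5p had 1738 to 18248 counts and rno-miR-146b-5p 8336 to 56444. In the shallow library they had 92 and 224 counts, so that rno-miR-146a-5p made up 29.1% of the reads of the pair there (95% Wilson interval 24.4% to 34.4%, counting error only, since PCR reads without molecular identifiers are not independent molecules). On average rno-miR-146b-5p took 0.453% of the counts of a library and ranked 31 among the 367 miRNAs, and rno-miR-146a-5p took 0.0948% and ranked 62. In sham rats there were 4.12 to 11.6 counts of rno-miR-146b-5p for each count of rno-miR-146a-5p (median 6.55, 28 rats). After TBI this figure ran from 1.28 to 7.24 (median 4.63, 28 rats). The rarer member thus came closest to the commoner one in injured rats, and it stayed below it in all 56 libraries.

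**Figure D1:**
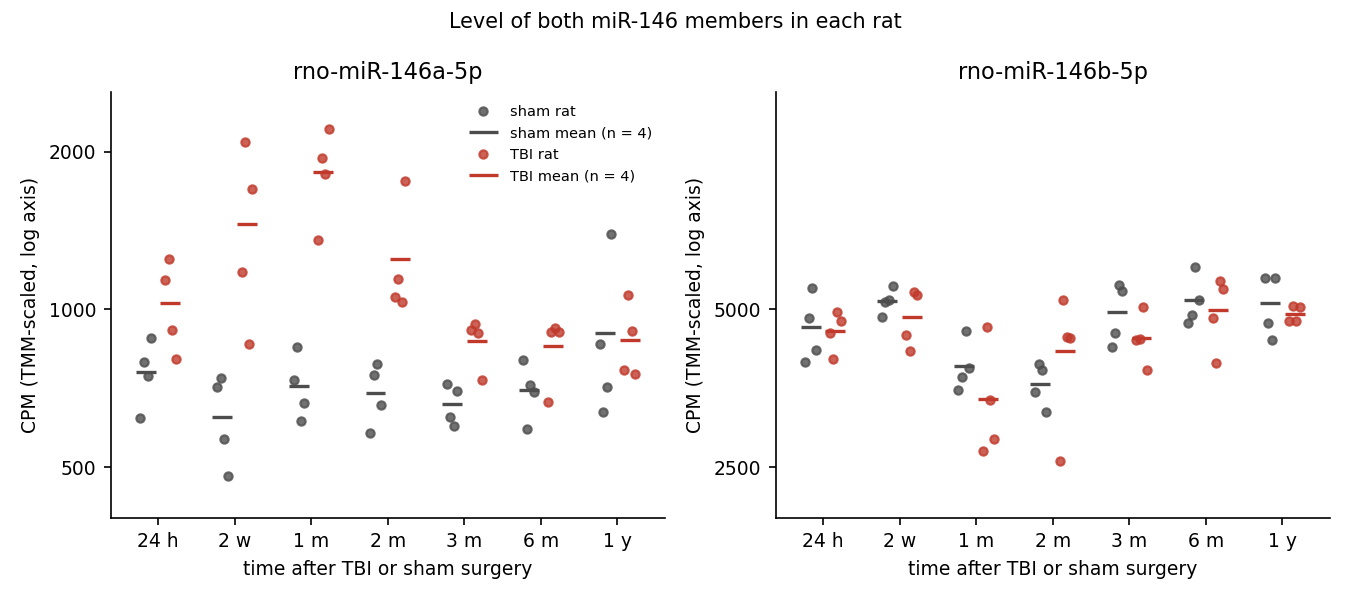
Level of rno-miR-146a-5p (left) and rno-miR-146b-5p (right) in each rat, as TMM-scaled CPM on log axes of equal span, by time after TBI or sham surgery. Points are rats and bars are means of 4. All TBI rats lie above all sham rats for rno-miR-146a-5p at 2 w, 1 m, 2 m and 3 m, and at no interval for rno-miR-146b-5p.

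For rno-miR-146a-5p the injured rats stood out from 2 w to 3 m. Levels are given as CPM, counts scaled to library size after TMM adjustment over all 56 libraries. At 2 w the 4 TBI rats were at 1177, 2087, 859 and 1700 CPM and the sham rats at 710, 739, 567 and 481 CPM. At 1 m, where the mean after injury was highest, the TBI rats were at 1358, 1947, 1812 and 2208 CPM and the sham rats at 734, 849, 613 and 664 CPM. Every TBI rat was above every sham rat at both times, but at 2 w the injured rats differed widely, with replicate 3 just above the sham range and replicate 2 far above it. The 2 m TBI rats were at 1056, 1142, 1032 and 1757 CPM against 580, 748.9, 786 and 658 CPM in sham rats, and at 3 m the values were 913, 936, 903 and 733 CPM against 720, 624, 598 and 698 CPM. Groups did not overlap at these times either, though at 3 m the lowest TBI rat was only just above the highest sham rat.

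Before and after this window the groups overlapped. At 24 h the TBI rats were at 1136, 1250, 915 and 804 CPM and the sham rats at 619, 794.4, 746 and 880 CPM, with 3 TBI rats above all sham rats. By 6 m the TBI rats were at 665, 906, 923 and 907 CPM and the sham rats at 800, 591, 717 and 695 CPM, again with 3 TBI rats above the sham range and the remaining 1 inside it. At 1 y the TBI rats were at 765, 1063, 911 and 753 CPM and the sham rats at 859, 638, 712 and 1392 CPM. No TBI rat exceeded the sham range at 1 y, where sham replicate 4 held the highest sham level of the study.

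Tested against sham at each interval with edgeR's quasi-likelihood test, rno-miR-146a-5p rose at 1 m, by 1.41 on the log2 scale (SE 0.20, adjusted p = 0.0012), from 715 ± 102 CPM in sham rats to 1831 ± 356 CPM after TBI (SD, n = 4 each). With a rat left out in turn its adjusted p at 1 m was at most 0.0132. At 2 w the log2 fold change was 1.24 (SE 0.25, adjusted p = 0.0676), with means of 624 ± 122 and 1456 ± 545 CPM (SD, n = 4 each), and this did not pass the threshold of 0.05. Without TBI 2 w replicate 3, the injured rat nearest the sham range, it was 1.42 with an adjusted p of 0.00567. This was the only 1 of the 8 fits with a rat left out to pass, and adjusted p in the others reached 0.329. Both DESeq2 tests, edgeR's likelihood ratio test and the fit of all libraries together put 2 w past the threshold, with adjusted p from 5.9e-05 to 0.000297. edgeR's quasi-likelihood test with DESeq2 size factors, with no filter, with total count only or in its older form did not. There the adjusted p ran from 0.0612 to 0.142.

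The remaining intervals did not pass in the main test. At 2 m the log2 fold change was 0.85 (SE 0.21, adjusted p = 0.197), and without the shallow library 0.90 (SE 0.22, adjusted p = 0.252). At 3 m it was 0.44 (SE 0.09, adjusted p = 0.21), at 24 h 0.43 (SE 0.17, adjusted p = 0.579) and at 6 m 0.27 (SE 0.12, adjusted p = 0.947). At 1 y it was −0.07 (SE 0.24, adjusted p = 0.958), and without sham 1 y replicate 4 it was 0.26 (adjusted p = 0.508). Ordered by p among the 220 to 240 miRNAs tested per interval, rno-miR-146a-5p came 1 at 2 w, 1 m and 3 m, 2 at 2 m, 10 at 24 h and 6 m, and 185 at 1 y.

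Few miRNAs passed at any interval. Of all miRNAs tested, 0.417% passed at 1 m, which was rno-miR-146a-5p alone (1 of 240), and 1.72% at 24 h. At each of the other 5 intervals 0% passed. The unadjusted p of edgeR's quasi-likelihood test was under 0.05 for 43 of 240 miRNAs at 1 m, the most of any interval. It was under 0.05 for 13 of 233 at 24 h and for 10 (6 m) to 21 (2 w) miRNAs at the other 5. Complete separation, with the TBI group higher, was found for 3.52% of miRNAs at 2 w, for 5.46% at 1 m, for 2.54% at 2 m and for 2.73% at 3 m, the 4 intervals where rno-miR-146a-5p did so. The same was true of 3.88% at 24 h, 0.446% at 6 m and 2.67% at 1 y, where neither member did so.

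rno-miR-146b-5p showed no such response. At 2 w its TBI rats were at 4467, 4164, 5396 and 5324 CPM and its sham rats at 4845, 5167, 5216 and 5553 CPM. The 1 m values were 2681, 4623, 3362 and 2833 CPM after TBI and 3509, 3709, 4541 and 3861 CPM after sham surgery. Where rno-miR-146a-5p was at its highest, 3 of the 4 TBI rats were thus below every sham rat for rno-miR-146b-5p, and the fourth was above them all. At 2 m the TBI rats were at 2571, 5221, 4432 and 4412 CPM and the sham rats at 3479, 3928, 3830 and 3187 CPM. Here 3 TBI rats were above the sham range, and the fourth, below it, was the shallow library.

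At the other 4 intervals the 2 groups covered much the same range. The TBI rats were at 4019 to 4949 CPM at 24 h, 3823 to 5053 CPM at 3 m, 3946 to 5674 CPM at 6 m and 4742 to 5064 CPM at 1 y. The sham rats were at 3973 to 5490, 4243 to 5560, 4714 to 6026 and 4362 to 5739 CPM at the same times. No TBI rat exceeded the sham range at any of these 4 intervals.

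The log2 fold changes of rno-miR-146b-5p lay between −0.15 (SE 0.20, 1 m) and 0.20 (SE 0.19, 2 m). They were −0.02 (SE 0.14) at 24 h, −0.08 (SE 0.10) at 2 w, −0.12 (SE 0.10) at 3 m, −0.08 (SE 0.12) at 6 m and −0.08 (SE 0.09) at 1 y. None passed edgeR's quasi-likelihood test, with adjusted p between 0.64 and 0.985. Without the shallow library the value at 2 m was 0.34 (SE 0.14, adjusted p = 0.545). Without TBI 1 m replicate 2, the injured rat above the sham range, the value at 1 m was −0.40 (SE 0.14, adjusted p = 0.152 in the same test). In order of p this member came between 85 and 209 among the miRNAs tested.

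**Figure D2:**
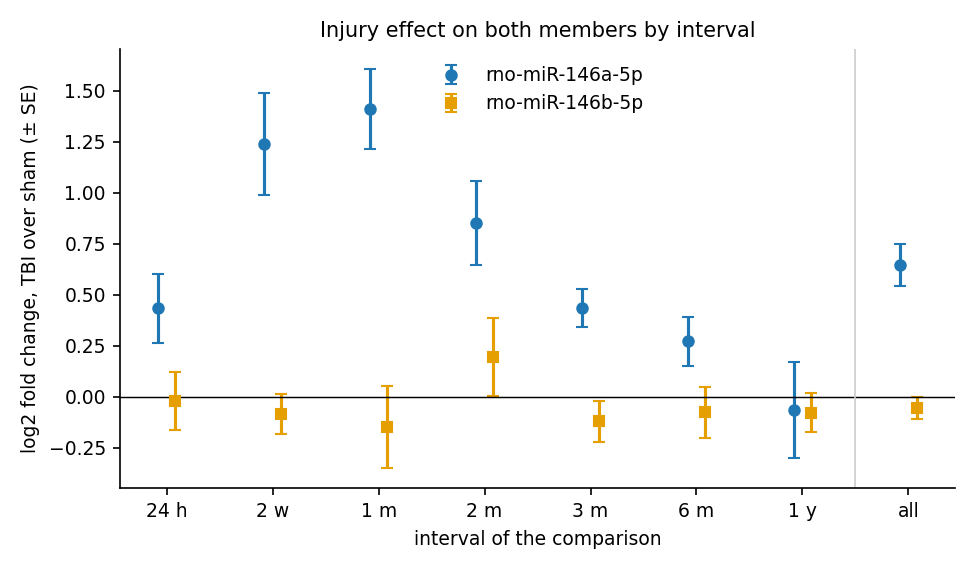
Log2 fold change of TBI over sham for both members at each interval and over all intervals (all), from edgeR's quasi-likelihood fit, with bars of 1 standard error. rno-miR-146a-5p climbs to 1.41 at 1 m and returns to −0.07 at 1 y, while rno-miR-146b-5p stays between −0.15 and 0.20.

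Over all intervals together, with the interval as a covariate, rno-miR-146a-5p was higher after TBI by 0.65 on the log2 scale (SE 0.10, adjusted p = 3.09e-06, edgeR's quasi-likelihood test over 56 libraries). For rno-miR-146b-5p the same estimate was −0.06 (SE 0.06, adjusted p = 0.699). Of all miRNAs, 4.51% passed this test, 11 of 244.

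The injury effect on rno-miR-146a-5p also changed with time. The 6 interaction terms of injury and interval gave an adjusted p of 0.00396 for rno-miR-146a-5p and 0.68 for rno-miR-146b-5p in edgeR's quasi-likelihood test, which 2.87% of miRNAs passed. Without the shallow library the adjusted p was 0.000799 and 0.43 in the same order, and the effect over all intervals was 0.64 and −0.05. No single step between neighbouring intervals passed for either member. The widest step of rno-miR-146a-5p, from 24 h to 2 w, was 0.79 (SE 0.29, adjusted p = 0.353), and 0.82% of miRNAs passed at that step and 0% at each of the 5 later ones. From 1 m to 2 m its effect moved by −0.48 (SE 0.29, adjusted p = 0.429) and that of rno-miR-146b-5p by 0.45 (SE 0.21, adjusted p = 0.276). The change in rno-miR-146a-5p therefore showed over the course as a whole and could not be placed at 1 step.

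The difference between the responses was tested within each library, as the log2 ratio of the counts of rno-miR-146a-5p to those of rno-miR-146b-5p, which needs no scaling between libraries. Over all 56 rats the ratio was higher after TBI by 0.70 on the log2 scale (SE 0.10), a 1.63-fold higher ratio, with p = 1e-05 in a two-sided permutation test within intervals, the smallest p that 100000 resamples can give. Without the shallow library the difference was 0.68 with the same p. By this test the members did not respond alike.

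At 1 m the log2 ratio was −0.98, −1.25, −0.89 and −0.36 in the TBI rats and −2.26, −2.13, −2.89 and −2.54 in the sham rats. The gap between the groups was 1.58 (SE 0.25), a 3.00-fold higher ratio after injury. At 2 w the TBI rats were at −1.92, −0.997, −2.65 and −1.65 and the sham rats at −2.77, −2.81, −3.20 and −3.53. This gap was 1.27 (SE 0.39), or 2.41-fold. It was 0.66 (SE 0.26) at 2 m and 0.56 (SE 0.15) at 3 m, 1.58-fold and 1.47-fold higher ratios. The ratios of the injured rats did not overlap those of the controls at these 4 intervals, although at 2 w, 2 m and 3 m the nearest TBI and sham rats nearly met.

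For each of these 4 intervals p was 0.0286 in a two-sided exact permutation test, the smallest that 4 rats against 4 allow, and after adjustment over the 7 intervals p was 0.05, at the threshold and not under it. With 3 rats against 4 the smallest p is 0.0571 in the exact test, so no rat could be left out without losing even the unadjusted call. Without the shallow library the gap at 2 m was 0.51 (SE 0.28). At 24 h the gap was 0.44 (SE 0.24) and at 6 m 0.35 (SE 0.19), each with an exact permutation p of 0.143 and an adjusted p of 0.167. At 1 y it was 0.07 (SE 0.22, exact permutation p = 0.8, adjusted p = 0.8).

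**Figure D3:**
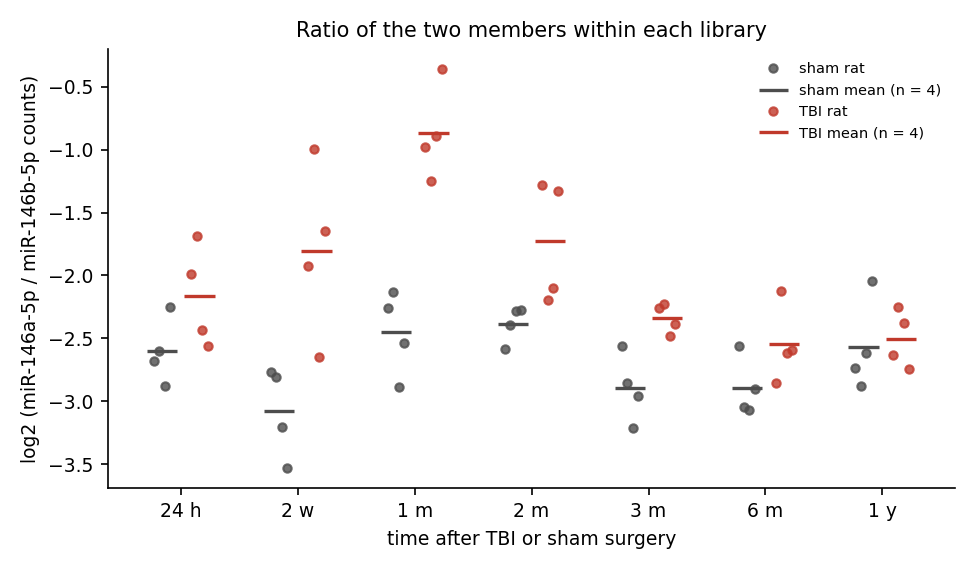
Log2 ratio of rno-miR-146a-5p to rno-miR-146b-5p counts within each library, by time after TBI or sham surgery; points are rats and bars are means of 4. The TBI rats lie above all sham rats at 2 w, 1 m, 2 m and 3 m, with the widest gap, 1.58, at 1 m.

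Because the members share their seed, their summed level was also described, without a test. At 1 m the sum was 4039 to 6570 CPM in TBI rats and 4243 to 5154 CPM in sham rats, and at 2 w 5644 to 7024 CPM and 5555 to 6034 CPM. The groups overlapped in the sum at all 7 intervals. At 1 m the mean of rno-miR-146a-5p was 1120 CPM higher after TBI, that of rno-miR-146b-5p differed by −530 CPM, and the sum differed by 586 CPM against an SD of 1041 CPM among the TBI rats. At 2 w the corresponding differences were 831, −358 and 474 CPM. The sum differed most at 2 m, by 1110 CPM (4299 ± 411 CPM in sham and 5406 ± 1247 CPM in TBI rats, SD, n = 4 each), where the means of both members were higher after TBI, by 554 CPM for rno-miR-146a-5p and 553 CPM for rno-miR-146b-5p. It differed by 203 CPM at 24 h, and by −314 CPM at 3 m, −79.1 CPM at 6 m and −262 CPM at 1 y. The SD of rno-miR-146b-5p alone among the TBI rats was 882 CPM at 1 m and 616 CPM at 2 w.

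The levels without injury were also compared across intervals, each member on its own, and a difference between their sham courses was not tested. The sham level of rno-miR-146b-5p differed between intervals (adjusted p = 0.0055, edgeR's quasi-likelihood test of 6 interval terms over 28 sham rats). It was highest at 6 m, 5205 ± 584 CPM, then 2 w with 5195 ± 290, 1 y with 5135 ± 710, 3 m with 4935 ± 653, 24 h with 4620 ± 684, 1 m with 3905 ± 448 and 2 m with 3606 ± 340 CPM (SD, n = 4 each). In this order only the step from 24 h down to 1 m was wider than the larger SD of the pair. The TBI rats had their lowest means of rno-miR-146b-5p at the same 2 intervals in the other order, 3375 ± 882 CPM at 1 m and 4159 ± 1124 CPM at 2 m (SD, n = 4 each). Among all miRNAs 27.1% passed this test in sham rats, 65 of 240, and the age of the rats cannot be told apart from any other difference between the intervals.

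For rno-miR-146a-5p the sham means ran from 624 CPM at 2 w to 900 CPM at 1 y, and the test across intervals did not pass (adjusted p = 0.226, edgeR's quasi-likelihood test). No neighbours in the order of its sham means (1 y, 24 h, 1 m, 6 m, 2 m, 3 m, 2 w) differed by more than the larger of their SDs. In the order of its TBI means (1 m, 2 w, 2 m, 24 h, 1 y, 3 m, 6 m) no neighbours did so either, and the 1 m and 2 w means, 375 CPM apart, had an SD of up to 545 CPM. The range over the 28 TBI rats was 665 to 2208 CPM (median 984) and over the 28 sham rats 481 to 1392 CPM (median 711). For rno-miR-146b-5p these ranges were 2571 to 5674 CPM (median 4565) and 3187 to 6026 CPM (median 4708).

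Rats high in one member for their group were not detectably high in the other. The deviations of log2 CPM from the group means gave Pearson's r = 0.04 (permutation p = 0.86, adjusted p = 0.86) and Spearman's rho = 0.07 (permutation p = 0.771, adjusted p = 0.771) over 28 TBI rats. Over 28 sham rats r was 0.17 (permutation p = 0.51, adjusted p = 0.86) and rho 0.07 (permutation p = 0.761, adjusted p = 0.771), with adjustment over both relations. With the 2 rats most distant from the median rno-miR-146a-5p level left out, r was 0.23 in TBI and −0.01 in sham rats.

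**Figure D4:**
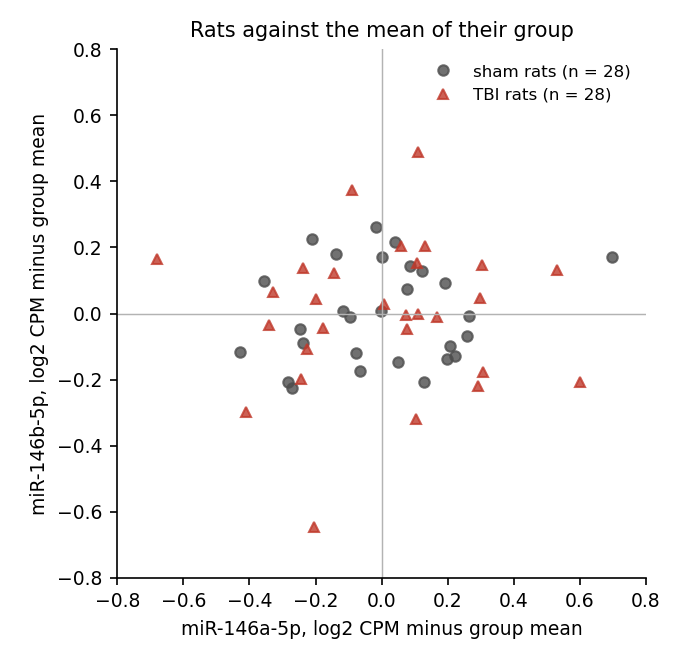
Deviation of each rat from the mean of its group of 4 in log2 CPM, rno-miR-146a-5p on the horizontal and rno-miR-146b-5p on the vertical axis, for 28 sham (circles) and 28 TBI (triangles) rats. The points form no line, with r = 0.17 in sham and 0.04 in TBI rats.

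Across the 56 libraries the miRNAs that followed each member were different ones, described by Pearson's r of log2 CPM over libraries that share injury groups, depth and preparation. Most like rno-miR-146a-5p were miR-142-5p (r = 0.68), a miRNA of blood-lineage cells and microglia, miR-17-5p (0.51), of the miR-17/92 cluster linked to proliferation, and miR-24-2-5p (0.51). Most like rno-miR-146b-5p were miR-26a-5p (r = 0.79), let-7f-5p (0.68) and miR-30e-5p (0.63), the second of them of the let-7 family that accompanies differentiation. rno-miR-146b-5p came 210 in the order for rno-miR-146a-5p among 243 miRNAs, with r = −0.25. The leading miRNA of each pattern carries another seed (RefSeq, GRCr8, seed in capitals).
rno-miR-142-5p: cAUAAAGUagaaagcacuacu
rno-miR-26a-5p: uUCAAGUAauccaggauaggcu
By Spearman's rho miR-142-5p and miR-26a-5p kept the first place, with 0.69 and 0.72. Of the 3 miRNAs most like rno-miR-146a-5p only 1 was still among the first 3 by rho, and of those most like rno-miR-146b-5p 2 were.

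Among 17 further miRNAs described as induced by Toll-like receptor and NF-kB signalling or as acting on it, 16 were in the table. At 24 h 2 of 14 tested members rose and none fell, beside 1.72% of all miRNAs called. They were miR-155-5p, an amplifier of inflammatory signalling, by 2.76 on the log2 scale (SE 0.21, adjusted p = 1.39e-05, edgeR's quasi-likelihood test), and miR-21-5p, a miRNA raised in many injuries, by 1.70 (SE 0.18, adjusted p = 0.000115). At each of the later 6 intervals 0 of 14 or 15 tested passed. The median log2 fold change of the list was −0.08 at 24 h, 0.01 at 2 w and 0.17 at 1 m, beside −0.01, 0.00 and 0.02 over all miRNAs tested. Over all intervals 3 of 16 rose and none fell, beside 4.51% of all miRNAs called: miR-155-5p rose by 1.24, miR-223-5p, a myeloid miRNA, by 1.37 and miR-21-5p by 0.38. The paper had already reported these 3 as changed after injury in this series, so these counts are not independent of earlier results. Of them miR-155-5p and miR-223-5p are also among the leukocyte and microglia markers below. miR-223-5p had too few counts to be tested at any single interval, so its rise rests on the fit over all intervals alone. At 24 h, when miR-155-5p and miR-21-5p passed, rno-miR-146a-5p was at 0.43 and did not. At 1 m, when rno-miR-146a-5p passed, miR-155-5p was at 1.23 (SE 0.27, adjusted p = 0.0569).

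In bulk tissue more cells of a type and more RNA per cell cannot be told apart. Markers of leukocytes and microglia (miR-142-5p, miR-150-5p, miR-155-5p and miR-223-5p) were therefore set beside rno-miR-146a-5p. Of the 3 tested at 1 m, all had positive log2 fold changes (median 0.57, beside 0.02 over all miRNAs tested), and 0 passed. On the log2 scale miR-142-5p differed by 0.54 (SE 0.16) at 24 h, 0.79 (SE 0.16) at 2 w, 0.57 (SE 0.20) at 1 m, 0.49 (SE 0.19) at 2 m and 0.35 (SE 0.10) at 3 m. It was 0.44 (SE 0.12) at 6 m and −0.05 (SE 0.12) at 1 y. Its values at 24 h and 6 m were above those of rno-miR-146a-5p, and those at 2 w, 1 m, 2 m and 3 m below them. The commonest marker, miR-150-5p, lay between −0.29 (SE 0.25, 24 h) and 0.23 (SE 0.11, 6 m). Over all intervals miR-150-5p was at 0.03 (SE 0.06, adjusted p = 0.863, edgeR's quasi-likelihood test). At 1 y 0 of the 3 markers tested had a positive log2 fold change. The summed level of the list was 862 to 1251 CPM in TBI and 821 to 942 CPM in sham rats at 1 m, and 1007 to 1372 and 994 to 1154 CPM at 2 w. It was 853 to 1102 and 840 to 1015 CPM at 2 m, and 1035 to 1346 and 1019 to 1154 CPM at 3 m, mostly miR-150-5p, whose median over all libraries was 961 CPM. miR-223-5p, the myeloid marker, had a median of 0.537 CPM, a highest level of 8.17 CPM and was at 0 in 5 libraries. It passed the count filter at no single interval and was tested only over all intervals. Over all intervals 3 of the 4 markers rose and none fell, beside 4.51% of all miRNAs called (median 0.84 beside −0.01). These were miR-142-5p, miR-155-5p and miR-223-5p, which the paper had already reported as changed after injury in this series. Their count is therefore not independent of earlier results on these data. The part of the markers in the rise of rno-miR-146a-5p was not tested.

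Markers of other cell types were set beside the 1 m result, and none of them passed there. miR-126a-5p, the endothelial miRNA, was at 217 to 629 CPM in TBI and 636 to 1003 CPM in sham rats (log2 fold change −0.68, SE 0.28, adjusted p = 0.238, edgeR's quasi-likelihood test). The sum of the 6 neuronal markers was 12120 to 33500 CPM in TBI and 9791 to 11710 CPM in sham rats, mostly miR-129-5p, at 8715 ± 926 CPM in sham and 16100 ± 10680 CPM in TBI rats (SD, n = 4 each). Of the other 5 neuronal markers, miR-138-5p was at −0.40 (SE 0.17) and miR-153-5p at −0.38 (SE 0.33) on the log2 scale, and miR-124-5p, miR-128-1-5p and miR-137-5p had positive values, up to 0.60. The red blood cell markers miR-451-5p and miR-144-5p were at −1.20 (SE 0.42) and −1.45 (SE 0.46), and miR-486 at 0.02 (SE 0.27). The oligodendrocyte marker miR-219a-5p was at −0.96 (SE 0.26, adjusted p = 0.141, edgeR's quasi-likelihood test) and miR-338-5p at 0.22 (SE 0.20). None of the markers of neurons (6), oligodendrocytes (2), endothelium (1), red blood cells (3), choroid plexus (3) or vessel wall muscle (2) passed at any interval or over all intervals. The neuronal markers were above 0 in all 56 libraries. Apart from miR-486, all markers of all cell types used here were 5p arms. A low or unchanged value therefore speaks only for that arm, and the 3p arms were not set beside them. The part of the other cell types in the results on the miR-146 family was not tested.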

How the data were processed

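Per the methods, the authors made NEBNext small RNA libraries, sequenced them on a NextSeq550, and quantified mature miRNAs with miRDeep2 and miRBase; the deposited values are raw counts without scaling. bcl2fastq 2.20.0.422 is named in the submitters' processing notes. How reads fitting several miRNAs were divided is not given in the sources used here. All 56 columns matched a sample, and 0 were left out.

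The members and lists were chosen with earlier results of these data known. Each interval was fitted on its 8 libraries with edgeR 4.0.16 in R 4.3.3 (filterByExpr, TMM, glmQLFit, glmQLFTest), with Benjamini-Hochberg adjustment over all miRNAs tested and a threshold of 0.05. Standard errors are the log2 fold change over the square root of F. All 56 libraries were fitted for the pooled, interaction and neighbouring-interval tests, and the 28 sham libraries for the sham course. Ratios used a pseudocount of 0.5 counts, and log2 CPM a prior count of 2. Likeness was ranked among miRNAs passing the filter over 14 groups, and the 3 highest per member were named. Alternatives were the size factors of DESeq2 1.42.0, total count, no filter, 3 other tests (edgeR's likelihood ratio test, and in DESeq2 the likelihood ratio and Wald tests), a joint fit, other pseudocounts and each rat left out; edgeR's older quasi-likelihood fit was added after the data were seen. The fits were run on simulated counts as a check of the code. These gave every miRNA the same dispersion, so no error rate is taken from them. Replicate numbers follow the order of deposit and pair no rats. In 84 pairs of libraries within groups none agreed within sampling noise. The tests of injury and interval set differences against the spread between rats, with edgeR's dispersions moderated over all miRNAs tested. The titles hold 28 numbers of the kind given within a sequencing run, each on 2 libraries, but not the run itself. At 6 intervals both libraries of a number were of the same group, and at 1 y a sham and a TBI library shared each number. Run was therefore no covariate, and its part in the results was not tested. Permutation tests used scipy 1.17.1.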

Additional observations from a re-analysis of the deposited data

Results flagged for a closer look

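In 3 groups, 1 rat lay far from the other 3 in rno-miR-146a-5p. TBI 2 m replicate 4 was at 1757 CPM, against 1032 to 1142 CPM in the others. TBI 3 m replicate 4 was at 733 CPM, against 903 to 936 CPM, and TBI 6 m replicate 1 was at 665 CPM, against 906 to 923 CPM. By chance about 1 in 20 sets of 4 rats shows such a rat, which is 2.1 of the 42 sets examined. These sets count each of the 14 groups more than once, for different quantities, so they are not independent. All 3 flagged rats were found in rno-miR-146a-5p. The injury effect on rno-miR-146a-5p differed between intervals, with an adjusted p of 0.00396 for the 6 interaction terms in edgeR's quasi-likelihood test.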

How the results depend on the processing

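The rise of rno-miR-146a-5p at 1 m and over all intervals, its change between intervals, and the higher ratio over all intervals kept their direction and their side of the threshold in each setting run. At 2 w rno-miR-146a-5p passed with edgeR's likelihood ratio test (1.24, adjusted p = 0.000297), DESeq2's Wald test (1.24, adjusted p = 5.9e-05) and likelihood ratio test (1.24, adjusted p = 8.77e-05) and the joint fit of 56 libraries (1.22, adjusted p = 0.000107). At 2 m it passed with the same 4 (0.85, 0.86, 0.86 and 0.88, adjusted p from 0.0186 to 0.0374), and at 3 m with both DESeq2 tests (0.40 in each, adjusted p = 0.017 and 0.0174). Over all settings other than left-out rats the adjusted p at 2 w lay between 5.9e-05 and 0.142, that at 2 m between 0.0186 and 0.403, and that at 3 m between 0.017 and 0.999. The cause was not tested. With total count only, rno-miR-146b-5p at 24 h turned to 0.015 (adjusted p = 0.973), and the median of all miRNAs at 2 m moved to −0.19 from −0.04. The relation between the members in TBI rats turned to −0.20 with total count only and to −0.074 without the shallow library.

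With a rat left out, rno-miR-146a-5p at 2 w ran from 1.01 to 1.42 and at 1 y from −0.17 to 0.26. rno-miR-146b-5p ran from −0.088 to 0.07 at 24 h, −0.395 to −0.046 at 1 m, −0.142 to 0.024 at 6 m and −0.15 to 0.004 at 1 y. The ratio gap at 1 y ran from −0.037 to 0.243. No paired analysis was possible because the labels name no pairs of TBI and sham rats, and the replicate numbers are not from the labels.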
